A study of Mus musculus with 8 samples.

Results

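A set of 35 genes of glycolysis and of the response to low oxygen was followed across lung tumour nodules of mice given JQ1, an antibody against PD-1, both, or vehicle. The genes were taken by symbol, without use of their values, and comprise a glucose transporter, glycolytic enzymes, genes of lactate and pyruvate handling, and the hypoxia-inducible factor (HIF) with its oxygen sensors and targets. All 35 are among the 52459 symbols of the count table. Of these, 33 were among the 14085 genes with enough counts to test, while Car9 and Car12, the carbonic anhydrases of hypoxic cells, had 13 and 24 counts in all 8 libraries together and were not tested. JQ1 is a BET inhibitor: it occupies the pockets with which these proteins read acetylated histones and help to drive transcription. PD-1 is a checkpoint receptor that restrains T cells.

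Glycolysis splits glucose into pyruvate, which cells either reduce to lactate and export or oxidise in mitochondria. The transcription factor HIF-1 pairs the oxygen-labile HIF-1α, encoded by Hif1a, with a stable partner. In oxygenated cells the prolyl hydroxylases encoded by Egln1 and Egln3 mark HIF-1α for destruction. When oxygen is low, HIF-1α persists and raises transcription of glucose transporters, glycolytic enzymes, the lactate exporter Slc16a3, pyruvate dehydrogenase kinases and the vessel growth factor Vegfa. Tumours often run glycolysis at a high rate also in the presence of oxygen.

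Each of the 4 groups holds 2 libraries of tumour nodules from the lung: vehicle, JQ1 alone, anti-PD-1 alone, and JQ1 with anti-PD-1, called the combination below. All the mice, vehicle included, carried the same genetically engineered lung tumour model, on a mixed strain background. The sources used here give no exact alleles, way of starting tumours, ages, doses or treatment times. The labels do not say whether libraries of a group came from separate animals. By sex-linked counts each of the 3 treated groups holds 1 female and 1 male library, so these are from different mice, and both vehicle libraries are male. Where libraries of a group are not separate mice, p-values measure only the spread between these samples, which may be technical.

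Total counts ran from 8977259 to 15224108 in 7 libraries and came to 2719816 in combination replicate 1, the shallowest. Ribosomal RNA took 21.8% to 24.2% of the counts in the 4 libraries without JQ1 and 27.7% to 52.5% in the 4 with it. Levels are given in CPM (counts scaled by library total and TMM factor, as cpm of edgeR gives them). The summed CPM of 10 epithelial and tumour markers was 5693 to 9870, and that of 6 T-cell markers did not pass 2.37 in any library. The libraries were made by probe capture. A level near 0, for these markers or for Car9 and Car12, can therefore also mean that a gene was poorly captured. The nodules are bulk tissue, so fewer cells of a type and less RNA per cell cannot be told apart. Differences below are log2 fold changes from 1 edgeR quasi-likelihood fit of all libraries, with Benjamini-Hochberg adjusted p over all tested genes. Their standard error (SE) is derived from the F statistic of that fit. A gene is said to rise or fall only at an adjusted p under 0.05.

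The clearest differences among the members were in the angiogenic factor Vegfa and the oxygen sensor Egln1, which were lower where JQ1 was given. Vegfa fell 2.57-fold in the combination against vehicle. Over both backgrounds, with and without the antibody, Vegfa fell 2.08-fold and Egln1 2.27-fold with JQ1. No other member passed the test in any comparison of this fit of all libraries, and most glycolytic enzymes overlapped between groups.

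Against vehicle, JQ1 alone called 0 of the 33 tested members, where the background over all tested genes is 0%. At an unadjusted p under 0.05 there were 5 members, against 10.1% of all tested genes. Anti-PD-1 alone also called 0 of 33 (background 0%), with 2 at an unadjusted p under 0.05 against 1.98% of all genes. DESeq2 and voom also called 0 members with JQ1 alone (all genes 0.568% and 0.0071%) and with anti-PD-1 alone (all genes 0.0781% and 0%). Without a filter on low counts, Egln1 was called with JQ1 alone and Egln3 with anti-PD-1 alone, of 35 tested. In that setting 0.946% and 0.208% of all genes were called. The combination called 1 of 33, Vegfa, which fell (background 4.8% in either direction and 2.36% falling), and 10 had an unadjusted p under 0.05, against 27.3% of all genes. Averaged over both backgrounds, JQ1 called 2 of 33, both falling (background 8.27% and 4.05% falling), and 9 had an unadjusted p under 0.05, against 31.6% of all genes. At 1 and 2 members, these counts are too small to set the members apart from all genes. The antibody averaged over both backgrounds called 0 of 33 (background 0.0142%, 4 at an unadjusted p under 0.05 against 10.1% of all genes). The interaction, which asks whether JQ1 acts differently when the antibody is present, called 0 of 33 (background 0%, 1 at an unadjusted p under 0.05 against 6.25% of all genes).

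The median log2 fold change of the 33 members was below that of all tested genes in each treatment against vehicle. It was −0.22 against 0.06 with JQ1, −0.16 against −0.00040 with anti-PD-1, and −0.12 against 0.07 with the combination. The 3 comparisons share the vehicle libraries. These medians moved with single libraries: with JQ1 the members' median was −0.10 without vehicle replicate 1, −0.35 without vehicle replicate 2 and −0.05 with a sex term. With anti-PD-1 it was −0.03 without vehicle replicate 1, −0.29 without vehicle replicate 2, −0.09 with a sex term, −0.32 without anti-PD-1 replicate 2, and −0.05 without anti-PD-1 replicate 1, where that of all genes was −0.04. With JQ1 the 2 libraries lay wholly below the 2 vehicle libraries for 13 of 33 members and wholly above for 5, against 23% and 26.3% of all tested genes. With anti-PD-1 these counts were 8 below and 1 above, against 16% and 14.4%. With the combination they were 10 below and 3 above, against 29.1% and 29.5%. With all 4 libraries given JQ1 set against the 4 without, 4 members lay below and 1 above, against 9.37% and 10.2% of all tested genes. The former are Vegfa, Egln1, Pdk3 and Hif1a, and the latter is Slc16a1.

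**Figure D1:**
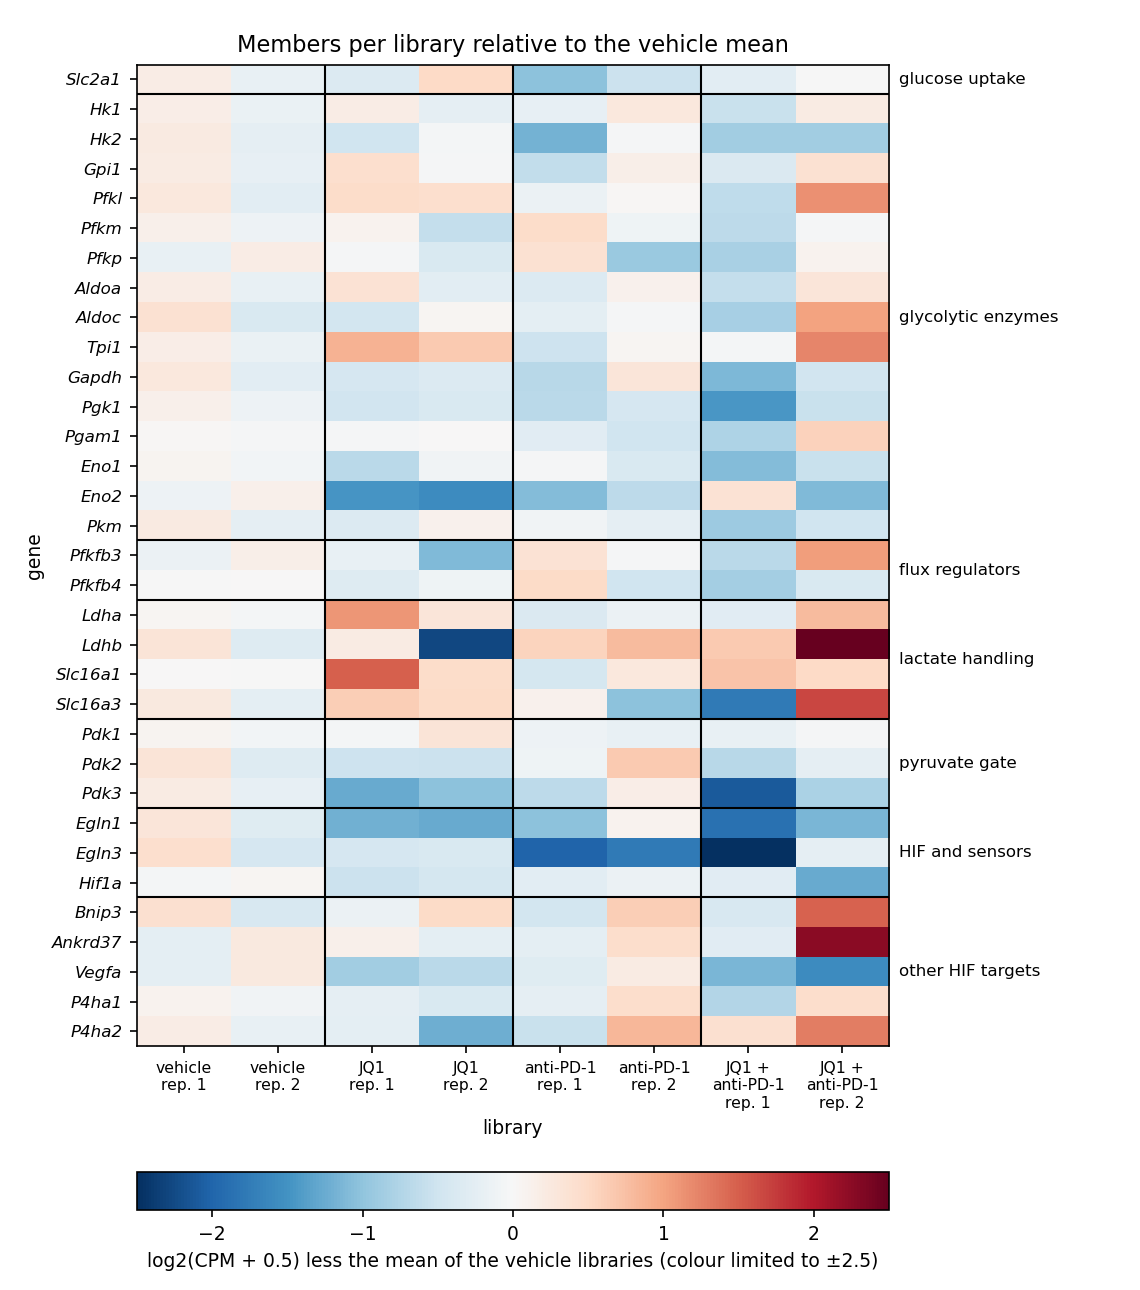
Level of the 33 tested members in the 8 libraries, as log2(CPM + 0.5) relative to the vehicle mean, with colour limited at 2.5 in either direction. Rows are genes ordered by role and columns are libraries; combination replicate 1 is below the vehicle mean for 29 of 33 members and combination replicate 2 for 16.

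The libraries of a group were not alike across the members. Relative to the vehicle mean, on the scale of log2(CPM + 0.5), the median of the 33 members was −0.22 and −0.25 in the JQ1 libraries, −0.29 and −0.03 in the anti-PD-1 libraries, and −0.68 and 0.08 in the combination libraries. The vehicle libraries themselves differed, with 26 members above the vehicle mean in replicate 1 and 7 in replicate 2. Combination replicate 1, the shallow library, had 29 of 33 members below the vehicle mean, and combination replicate 2 had 16. As a result the median of the members in the combination depended on the library: it was 0.06 without combination replicate 1 and −0.72 without combination replicate 2. It was also above 0 without vehicle replicate 1 (0.04) and when only genes with a mean count of at least 50 were kept (0.01). The part of library depth in this split was not tested.

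Hif1a, which encodes the oxygen-regulated subunit of HIF-1, was measured at 360 and 385 CPM in vehicle, 256 and 274 with JQ1, 309 and 338 with anti-PD-1, and 305 and 154 with the combination. Every library given JQ1 was below every library without it, although combination replicate 1 stood just under the lowest anti-PD-1 library. Against vehicle the log2 fold change was −0.49 (SE 0.31, adjusted p = 0.572) with JQ1, −0.20 (SE 0.31, adjusted p = 1) with anti-PD-1 and −0.70 (SE 0.31, adjusted p = 0.179) with the combination. Over both backgrounds it was −0.49 with JQ1 (SE 0.22, adjusted p = 0.155). Without combination replicate 1 the Hif1a values were −0.78 over both backgrounds and −1.28 in the combination. Without combination replicate 2 they were −0.30 and −0.31. Each of these fits leaves a lone combination library. The antisense gene Gm15283 overlaps Hif1a and had 288 counts against 26744, and the sources used here do not say whether counting used the strand.

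Egln1 encodes PHD2, the main prolyl hydroxylase that marks HIF-1α in oxygenated cells. Its level was 282 and 185 CPM in vehicle, 98.6 and 94.8 with JQ1, 113 and 242 with anti-PD-1, and 62.2 and 103 with the combination. All 4 libraries given JQ1 were below all 4 without it, while the anti-PD-1 libraries spread over a wide range that met the vehicle values. Egln1 fell with JQ1 over both backgrounds by 1.18 on the log2 scale (SE 0.28, adjusted p = 0.0365). The single comparisons missed the threshold, at −1.27 (SE 0.39, adjusted p = 0.443) with JQ1 alone and −1.49 (SE 0.40, adjusted p = 0.0577) with the combination. The call over both backgrounds was lost on leaving out any library except anti-PD-1 replicate 1. Most of these losses came with a smaller share of all tested genes called than in the main fit. Without combination replicate 1, the shallowest library, a larger share was called and Egln1 was still lost. The direction was the same each time, and the fold change lay between −1.42 and −0.87.

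Egln3 encodes PHD3, a hydroxylase that is itself a HIF target and so part of a feedback loop. It was at 28.0 and 15.5 CPM in vehicle, 15.4 and 15.8 with JQ1, 4.81 and 5.81 with anti-PD-1, and 2.52 and 17.8 with the combination. Both anti-PD-1 libraries were below both vehicle libraries, whereas the combination libraries lay far apart, on 6 and 108 counts. The log2 fold change was −2.03 with anti-PD-1 (SE 0.64, adjusted p = 1), the smallest unadjusted p of the members in that comparison (0.0110), −0.48 with JQ1 (SE 0.61, adjusted p = 0.782) and −1.003 with the combination (SE 0.64, adjusted p = 0.332).

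Vegfa encodes the growth factor that draws new blood vessels towards poorly oxygenated tissue. Its level was 478 and 678 CPM in vehicle, 311 and 357 with JQ1, 461 and 657 with anti-PD-1, and 258 and 192 with the combination. Vehicle and anti-PD-1 covered the same range, the JQ1 libraries lay below both, and the combination libraries lay below the JQ1 libraries. Vegfa fell in the combination by 1.36 on the log2 scale (SE 0.30, adjusted p = 0.0361) and with JQ1 over both backgrounds by 1.053 (SE 0.21, adjusted p = 0.0247). JQ1 alone gave −0.79 (SE 0.29, adjusted p = 0.452) and anti-PD-1 alone −0.05 (SE 0.29, adjusted p = 1). Whether JQ1 acted differently on Vegfa beside the antibody did not pass the test, with an interaction of −0.52 (SE 0.41, adjusted p = 0.859).

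The Vegfa calls depended on single libraries, although the direction did not. In each fit named next that lost a call, a smaller share of all tested genes was also called than in the main fit. The loss is thus not particular to Vegfa. In the combination the call was lost without vehicle replicate 1 (−1.61, adjusted p = 0.123), vehicle replicate 2 (−1.11, adjusted p = 0.230) or combination replicate 2 (−1.19, adjusted p = 0.143). It was also lost when only the libraries compared entered the fit (adjusted p = 0.0582) and with a term for sex (adjusted p = 0.0505). Over both backgrounds it was lost without vehicle replicate 1, vehicle replicate 2, JQ1 replicate 1, anti-PD-1 replicate 2 or combination replicate 2, with adjusted p between 0.0525 and 0.111. Summed markers of the endothelium, the cells that answer to Vegfa, leaned the other way. Over 7 genes the sum was 75.9 to 138 CPM without JQ1 and 142 to 175 with it. Of the 7, 3 (Pecam1, Flt1 and Cldn5) were higher in every library given JQ1. Cdh5, Kdr and Tek overlapped. Ramp2 leaned lower with overlap, at 8.62 to 22.0 without JQ1 and 7.56 to 13.5 with it. The summed fibroblast markers were 963 to 1600 without JQ1 and 403 to 741 with it, with 2 of 6, Col1a1 and Col1a2, lower in every library. Most of this sum was the collagen gene Col1a1 (250 to 1255). Other fibroblast markers leaned the other way with overlap: Pdgfra was 5.72 to 17.9 without JQ1 and 17.4 to 48.7 with it. Dcn was 1.43 to 7.22 against 3.31 to 12.8, while Col3a1 overlapped and Lum was near 0. The summed airway markers were 13.4 to 119 against 170 to 601, with 0 of 6 apart as single genes. The summed neutrophil markers were 1.32 to 1.69 against 2.80 to 10.99, with 1 of 6 higher in every library given JQ1. The sum of 10 epithelial and tumour markers overlapped, but Epcam, Cdh1 and Napsa were higher, and Nkx2-1 and Cldn18 lower, in all 4 libraries given JQ1. The sum of 8 striated muscle markers was 3239 to 5339 without JQ1 and 661 to 3707 with it, lowest in the 2 combination libraries. Most of it was Myh7 (594 to 4809) and Myh6 (64.7 to 524), while Myl2 was at 0 in all 8 libraries and Mb and Ckm did not pass 0.524. The defining T-cell gene Cd3d was at 0 in 7 libraries, where few T cells and poor probe capture cannot be told apart. The part of these cell markers, of the ribosomal RNA share and of sex in the Vegfa and Egln1 results was not tested beyond the term for sex and a fit without the ribosomal RNA genes, in which the same calls of Vegfa and Egln1 were made.

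**Figure D2:**
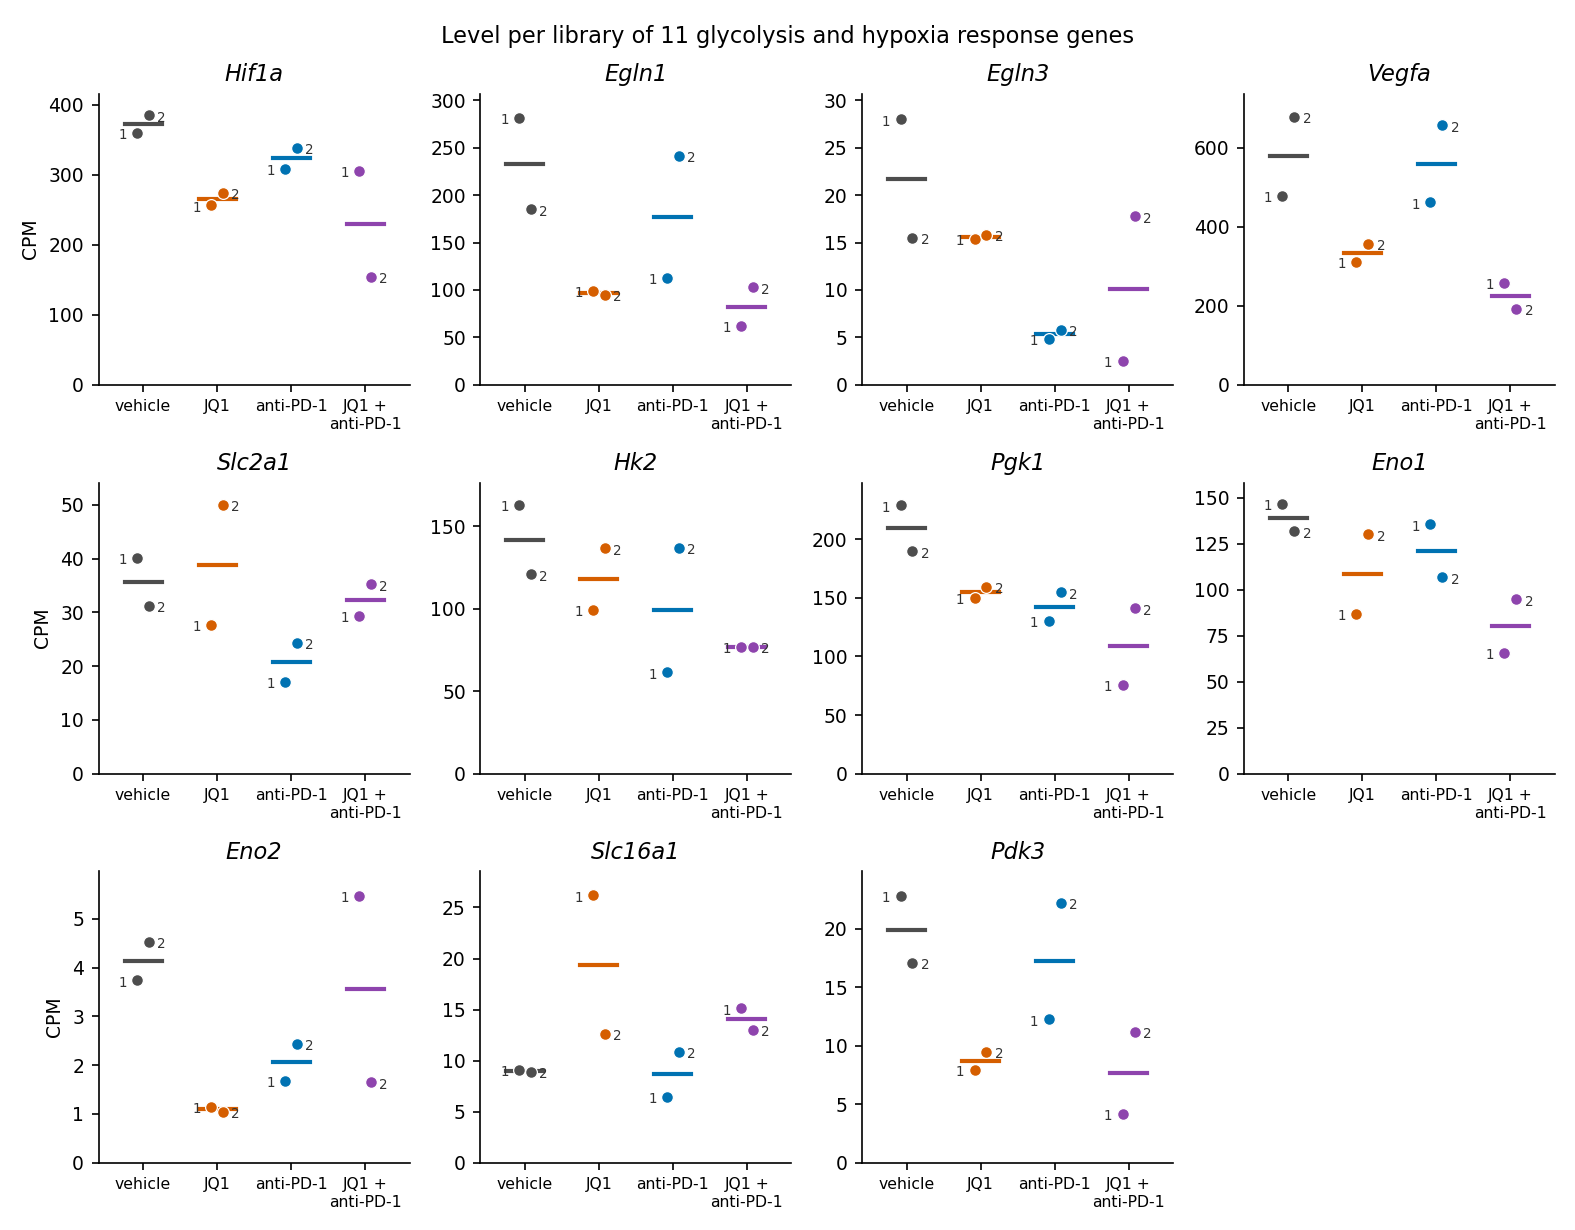
Level in CPM (vertical axis, from 0) of 11 members in each library, by group; points are libraries, numbers beside them are replicate numbers and bars are group means of 2. Vegfa, Egln1, Pdk3 and Hif1a sit lower in all 4 libraries given JQ1 than in the 4 without it, and Slc16a1 sits higher.

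The DNA before the starts of these 5 genes is shown because their libraries with and without JQ1 did not overlap, and because HIF-1 binds the short core letters ACGTG or GCGTG. Sequences are from RefSeq on GRCm38.p6, taken from the 250 bases before an annotated start, without the bases that GENCODE vM21 places in an exon, and written 5′ to 3′ along the gene. Capitals mark either core on either strand.
Vegfa, chr17:46032378-46032627, minus strand: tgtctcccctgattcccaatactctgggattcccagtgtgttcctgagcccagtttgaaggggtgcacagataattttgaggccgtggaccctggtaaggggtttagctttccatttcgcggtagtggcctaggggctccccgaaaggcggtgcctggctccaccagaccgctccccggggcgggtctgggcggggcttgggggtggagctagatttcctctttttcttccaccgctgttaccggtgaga
Egln1, chr8:124949325-124949504, minus strand: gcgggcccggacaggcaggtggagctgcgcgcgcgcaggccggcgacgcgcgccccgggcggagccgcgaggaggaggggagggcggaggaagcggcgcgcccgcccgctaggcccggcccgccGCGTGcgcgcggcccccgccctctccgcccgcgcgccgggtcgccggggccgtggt
Pdk3, chrX:93832202-93832400, minus strand: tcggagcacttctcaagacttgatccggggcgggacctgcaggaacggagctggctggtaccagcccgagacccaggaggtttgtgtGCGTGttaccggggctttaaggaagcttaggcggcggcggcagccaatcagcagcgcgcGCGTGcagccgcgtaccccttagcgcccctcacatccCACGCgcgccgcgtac
Hif1a, chr12:73907617-73907866, plus strand: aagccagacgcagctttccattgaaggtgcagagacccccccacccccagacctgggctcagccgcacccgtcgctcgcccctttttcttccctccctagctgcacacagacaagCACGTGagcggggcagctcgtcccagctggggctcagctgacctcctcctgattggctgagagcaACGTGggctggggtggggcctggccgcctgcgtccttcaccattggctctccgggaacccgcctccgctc
Slc16a1, chr3:104638414-104638663, plus strand: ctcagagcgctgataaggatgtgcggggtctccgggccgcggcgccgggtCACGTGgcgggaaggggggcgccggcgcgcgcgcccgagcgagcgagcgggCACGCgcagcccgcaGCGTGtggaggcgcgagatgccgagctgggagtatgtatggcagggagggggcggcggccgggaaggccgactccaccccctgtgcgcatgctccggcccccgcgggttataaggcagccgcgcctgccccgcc
The Vegfa stretch holds neither core. The Egln1 stretch holds GCGTG at 1 place and the Pdk3 stretch at 3 places. The Hif1a and Slc16a1 stretches each hold the palindrome CACGTG, the E-box bound by MYC-family proteins, which contains ACGTG on both strands and is counted once per strand. The Slc16a1 stretch also holds GCGTG at 2 places, and the Hif1a stretch also holds ACGTG outside the palindrome. The Hif1a window lies inside the annotated gene, before an internal start, while the other 4 lie at the gene's outer start.

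The shares that follow are over the whole 250 bases before each start, exon bases included, and so do not rest on the trimmed stretches above. In its whole window Egln1 also holds ACGTG at 1 place, as does Pdk3, and the window of a second, internal Vegfa start holds 1 of each core in bases that lie in an exon. All 35 members had windows in the RefSeq table, 50 in all for genes with several starts. Either core was present in 39 of these 50 windows, in 54.7% of the 12824 windows of tested genes and in 38.6% of all 32851 windows. ACGTG alone was in 50.0% of member windows, 21.1% of those of tested genes and 16.6% of all. For GCGTG the shares were 52.0%, 43.6% and 28.2%, and for CACGTG, searched on its own, 14.0%, 8.0% and 6.0%. The cores are rich in G and C, and the median GC content was 61.0% in member windows, 59.6% in those of tested genes and 52.4% in all. These are letter matches and not sites of binding, and a window without them says nothing about HIF-1 elsewhere near the gene.

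Slc2a1 encodes GLUT1, the basal glucose transporter. Its level was 40.1 and 31.2 CPM in vehicle, 27.7 and 49.9 with JQ1, 17.1 and 24.4 with anti-PD-1, and 29.4 and 35.2 with the combination. The anti-PD-1 libraries were the lowest and did not meet vehicle, whereas the JQ1 libraries spread on both sides of it. The log2 fold change with anti-PD-1 was −0.78 (SE 0.35, adjusted p = 1), against 0.13 (SE 0.34, adjusted p = 0.902) with JQ1 and −0.13 (SE 0.35, adjusted p = 0.830) with the combination.

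The 15 glycolytic enzymes gave no call in any of the 6 comparisons of the main fit. Their median log2 fold change was −0.22 with JQ1, −0.19 with anti-PD-1 and −0.29 with the combination, and 11, 13 and 10 of the 15 were below 0. In combination replicate 1 the enzymes' median was −0.77 relative to the vehicle mean, with 14 of 15 below it, and in combination replicate 2 it was 0.08 with 7 below. The combination libraries therefore did not share a direction for the enzymes as a group.

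Pgk1, the first ATP-forming step of glycolysis, was at 229 and 189 CPM in vehicle, 150 and 159 with JQ1, 130 and 155 with anti-PD-1, and 76.1 and 141 with the combination. All 6 treated libraries were below both vehicle libraries. Its log2 fold change was −0.43 (SE 0.31, adjusted p = 0.604), −0.55 (SE 0.31, adjusted p = 1) and −0.94 (SE 0.31, adjusted p = 0.0919) in the order of these groups. Eno1, the general enolase, was at 147 and 132 CPM in vehicle, 87.0 and 130 with JQ1, 136 and 107 with anti-PD-1, and 65.5 and 94.8 with the combination. Only the combination libraries stood clear of the anti-PD-1 and vehicle values together. Its log2 fold change was −0.36 (SE 0.30, adjusted p = 0.653) with JQ1, −0.20 (SE 0.30, adjusted p = 1) with anti-PD-1 and −0.79 (SE 0.30, adjusted p = 0.129) with the combination. Eno1b, a near copy of Eno1, held 606 counts beside 10365, and reads could have been split between them.

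Hk2, the inducible hexokinase that commits glucose to the cell, was at 163 and 121 CPM in vehicle, 99.6 and 137 with JQ1, 61.4 and 137 with anti-PD-1, and 76.9 and 77.0 with the combination. The combination libraries agreed closely and were below vehicle, and the anti-PD-1 libraries differed more than 2-fold. For Hk2 the log2 fold change was −0.27 (SE 0.36, adjusted p = 0.794) with JQ1, −0.52 (SE 0.37, adjusted p = 1) with anti-PD-1 and −0.88 (SE 0.37, adjusted p = 0.160) with the combination. Eno2, the enolase of neurons and neuroendocrine cells, was at 3.74 and 4.53 CPM in vehicle, 1.15 and 1.04 with JQ1, 1.67 and 2.44 with anti-PD-1, and 5.46 and 1.65 with the combination. Each single treatment was below vehicle and the combination spanned both, all on 10 to 79 counts a library. Against vehicle it was −1.90 on the log2 scale (SE 0.60, adjusted p = 0.443) with JQ1, −1.01 (SE 0.57, adjusted p = 1) with anti-PD-1 and −0.34 (SE 0.60, adjusted p = 0.742) with the combination. Its interaction was 2.58 (SE 0.86, unadjusted p = 0.0130, adjusted p = 0.745).

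The other 11 enzymes are Hk1, Gpi1, Pfkl, Pfkm, Pfkp, Aldoa, Aldoc, Tpi1, Gapdh, Pgam1 and Pkm, which between them carry glucose from its first phosphorylation to pyruvate. Across them the log2 fold changes ran from −0.41 (Gapdh) to 0.76 (Tpi1) with JQ1, from −0.41 (Pgam1) to 0.20 (Pfkm) with anti-PD-1, and from −0.79 (Gapdh) to 0.73 (Tpi1) with the combination. Triosephosphate isomerase, Tpi1, was at 53.1 and 41.9 CPM in vehicle, 87.1 and 74.1 with JQ1, 32.8 and 49.1 with anti-PD-1, and 45.8 and 110 with the combination. Tpi1 is singled out after its values were seen. It was higher in 3 of the 4 libraries given JQ1 than in any without, with 0.85 (SE 0.28, adjusted p = 0.0755) over both backgrounds. There it was called as rising with DESeq2, without a filter on low counts, and with a mean count of at least 50. Those settings called 15.1%, 9.56% and 13.4% of all genes. Gapdh, often used as a reference gene, ran from 321 CPM in combination replicate 1 to 864 in anti-PD-1 replicate 2. Protein-coding genes on the other strand overlap Gapdh (Iffo1), Tpi1 (Spsb2), Pfkm (Senp1), Pfkp (Pitrm1) and Aldoa (Fam57b).

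Per kilobase of annotated exon, the vehicle level of the 33 tested members spanned a wide range, from 173 CPM for Gapdh, 159 for Pkm, 135 for Vegfa and 114 for Aldoa to 0.5003 for Slc16a3. Within families of isozymes, Hk2 stood at 23.8 CPM per kilobase and Hk1 at 6.62, Aldoa at 114 and Aldoc at 4.18, and Eno1 at 25.9 and Eno2 at 0.878. Of the phosphofructokinases Pfkm was at 8.62, Pfkl at 5.98 and Pfkp at 1.31. Of the lactate dehydrogenases Ldha, the form that favours lactate, was at 27.0 and Ldhb at 1.82. The libraries were made by probe capture, so levels between genes also carry how well each was captured, and no test was made.

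Pfkfb3 and Pfkfb4 make and break fructose 2,6-bisphosphate, the signal that speeds phosphofructokinase. Neither was called. Pfkfb3 ran from 20.2 CPM in JQ1 replicate 2 to 92.0 in combination replicate 2, and Pfkfb4 from 14.3 in combination replicate 1 to 36.4 in anti-PD-1 replicate 1. Their log2 fold changes were −0.59 and −0.21 with JQ1, 0.17 and 0.07 with anti-PD-1, and 0.45 and −0.59 with the combination.

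All 4 genes of lactate handling had a positive log2 fold change with JQ1 over both backgrounds, with a median of 0.79. None was called in the main fit. With JQ1 alone 3 were above 0 and Ldhb was below it, at −0.76 (SE 1.07, adjusted p = 0.799). Ldhb and Slc16a3 were highest in the single library combination replicate 2, at 27.3 and 9.38 CPM, against 4.62 and 0.420 in combination replicate 1. Slc16a1, the lactate transporter MCT1, was at 9.07 and 8.94 CPM in vehicle, 26.2 and 12.6 with JQ1, 6.49 and 10.9 with anti-PD-1, and 15.1 and 13.0 with the combination. It was higher in all 4 libraries given JQ1 than in the other 4, with JQ1 replicate 1 well above the rest. The log2 fold change was 1.10 (SE 0.42, adjusted p = 0.452) with JQ1, −0.06 (SE 0.42, adjusted p = 1) with anti-PD-1, 0.63 (SE 0.43, adjusted p = 0.359) with the combination and 0.90 (SE 0.30, adjusted p = 0.0798) over both backgrounds. Without a filter on low counts Slc16a1 was called over both backgrounds (0.84, adjusted p = 0.0496), where 9.56% of all genes were called. The sense intronic transcript Gm43581 lies within Slc16a1 and had 67 counts beside 994.

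Ldha, which reduces pyruvate to lactate, ran from 69.2 CPM in anti-PD-1 replicate 1 to 192 in JQ1 replicate 1. With JQ1 over both backgrounds it had 0.69 (SE 0.27, adjusted p = 0.112). It was called as rising there without a filter on low counts, where 9.56% of all genes were called. Ldhb, the form that favours pyruvate, was at 0.174 CPM in JQ1 replicate 2, on 2 counts, and at 27.3 in combination replicate 2, against 2.12 to 5.16 in the other 6 libraries. Slc16a3, the HIF-driven lactate exporter MCT4, likewise went from 0.420 CPM in combination replicate 1, on 1 count, to 9.38 in combination replicate 2. In CPM, the libraries of the combination were further apart than those of any other group for both genes. The fitted change in the combination was 2.54 (SE 1.03, adjusted p = 0.161) for Ldhb and 1.03 (SE 0.86, adjusted p = 0.461) for Slc16a3.

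Pyruvate dehydrogenase kinases switch off the entry of pyruvate into mitochondria. Pdk3 was at 22.8 and 17.1 CPM in vehicle, 7.96 and 9.48 with JQ1, 12.3 and 22.2 with anti-PD-1, and 4.20 and 11.2 with the combination. All 4 libraries given JQ1 were below all 4 without it, the nearest being combination replicate 2 and anti-PD-1 replicate 1. Its log2 fold change was −1.19 (SE 0.46, adjusted p = 0.452) with JQ1, −0.21 (SE 0.44, adjusted p = 1) with anti-PD-1, −1.30 (SE 0.47, adjusted p = 0.119) with the combination and −1.14 (SE 0.33, adjusted p = 0.0572) over both backgrounds. The combination value was −2.27 without combination replicate 2 and −0.84 without combination replicate 1, neither called. The value over both backgrounds passed the threshold without combination replicate 2 (−1.63, adjusted p = 0.0451) and, of the other settings tried, with RLE factors (adjusted p = 0.04997), DESeq2 (adjusted p = 0.00931) and no filter on low counts (adjusted p = 0.00166). Pdk2 had −0.66 over both backgrounds (SE 0.24, adjusted p = 0.0920), with libraries that overlapped. Pdk1, the classical HIF target of the family, stayed between 21.8 and 31.1 CPM in all 8 libraries, with 0.10 (SE 0.20, adjusted p = 0.755).

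Of the HIF targets beside Vegfa, Bnip3 (mitophagy), Ankrd37, and the collagen prolyl hydroxylase subunits P4ha1 and P4ha2 gave no call. Each was highest, or for P4ha1 within 1 CPM of highest, in combination replicate 2: 53.8 CPM for Bnip3, 12.2 for Ankrd37, 65.5 for P4ha1 and 51.7 for P4ha2. In combination replicate 1 they were at 14.3, 1.68, 29.0 and 28.2 CPM. The median of the 5 tested HIF targets, Vegfa included, was −0.41 in combination replicate 1 and 1.27 in combination replicate 2 relative to the vehicle mean. Vegfa was lower in combination replicate 2 than in any other library, while Bnip3, Ankrd37 and P4ha2 were at their highest there. Ankrd37 had only 248 counts in all, and Ufsp2, which overlaps it on the other strand, had 358. Car9 did not pass 0.348 CPM, nor Car12 0.783 CPM, in any library.

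**Figure D3:**
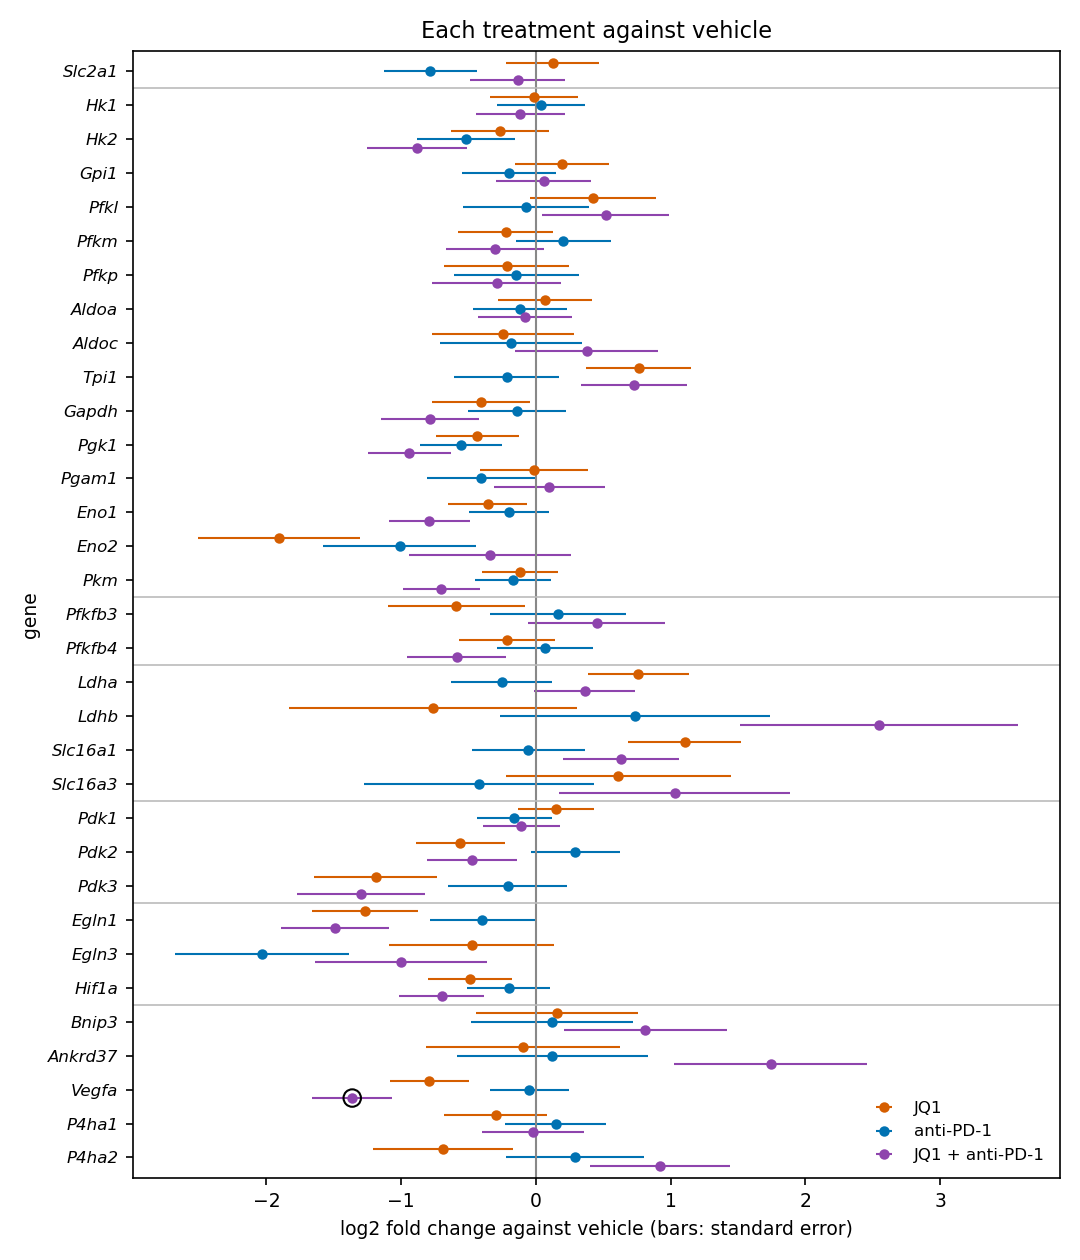
Log2 fold change against vehicle, with SE bars, of the 33 tested members after JQ1, anti-PD-1 and the combination, grouped by role. A ring marks an adjusted p under 0.05, which only Vegfa in the combination reached (−1.36, SE 0.30).

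Further genes of the same pathways were listed by role, with earlier results of these data known. They were called at the counts below, beside 4.8% of all tested genes in the combination and 8.27% with JQ1 over both backgrounds. Of 11 tested HIF partners and regulators, 0 rose and 0 fell in the combination, and 0 rose and 1 fell with JQ1 over both backgrounds. That was Crebbp, a coactivator that HIF-1 recruits, at 933 ± 53.4 CPM (SD, n = 2) in vehicle, 679 ± 130 with JQ1, 1004 ± 105 with anti-PD-1 and 497 ± 114 with the combination (log2 −0.74, SE 0.19, adjusted p = 0.0433). Of 31 tested further hypoxia response genes, none was called in the combination, and with JQ1 over both backgrounds 1 rose and 1 fell. Wsb1, part of a ubiquitin ligase, fell with JQ1 over both backgrounds by 0.73 on the log2 scale (SE 0.19, adjusted p = 0.0432). Its level was 39.6 ± 0.0471 CPM in vehicle and 24.8 ± 1.87 with JQ1 alone, a comparison in which it was not called. Stc2, a secreted glycoprotein, rose (adjusted p = 0.0397) at very low levels, from 0 in both vehicle libraries to 2.92 ± 3.27 CPM with JQ1, 0.886 ± 0.325 with anti-PD-1 and 1.54 ± 0.788 with the combination.

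Of 22 tested further isozymes of glycolysis and gluconeogenesis, 1 rose and 1 fell in the combination, and 2 rose and 1 fell with JQ1 over both backgrounds. Adpgk, a glucokinase that uses ADP, fell in both: it was at 23.8 ± 2.21 CPM in vehicle, 14.6 ± 2.04 with JQ1, 15.3 ± 0.720 with anti-PD-1 and 6.69 ± 0.546 with the combination (log2 −1.82, SE 0.33, adjusted p = 0.0261, and −0.94, SE 0.22, adjusted p = 0.0356). Slc16a7, the transporter MCT2, rose in the combination from 3.67 ± 0.0900 to 18.1 ± 4.20 CPM (log2 2.31, SE 0.52, adjusted p = 0.0383). Ldhd, the dehydrogenase of D-lactate, and Pgm1 rose with JQ1 over both backgrounds by 1.56 (SE 0.32, adjusted p = 0.0275) and 1.501 (SE 0.30, adjusted p = 0.0260). Of 12 genes of pyruvate oxidation, 0 rose and 0 fell in the combination, and 0 rose and 1 fell with JQ1 over both backgrounds. That was Pdp1, the phosphatase that reverses the kinases above, with −1.06 (SE 0.27, adjusted p = 0.0429). Most of its list went the other way: 9 of 12 were above 0 in each comparison, with medians of 0.97 and 0.39. At an unadjusted p under 0.05 there were 6 and 4 of the 12, against 27.3% and 31.6% of all genes. Leaving out either vehicle library or combination replicate 2 ended each of these calls in the combination and over both backgrounds. Leaving out JQ1 replicate 1 or either anti-PD-1 library ended each call over both backgrounds, JQ1 replicate 2 those of Adpgk, Crebbp, Pdp1 and Wsb1, combination replicate 1 that of Stc2, and either anti-PD-1 library that of Slc16a7. In these fits the direction was the same, and adjusted p lay between 0.0542 and 0.230. Upper-quartile factors and a mean count of at least 50 ended the calls of Crebbp, Pdp1 and Wsb1, a sex term those of Crebbp, Wsb1, Stc2 and Slc16a7, and voom that of Stc2.

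Anti-PD-1 alone and averaged over both backgrounds called none of the members or of these 4 lists. Where it was lower than vehicle in both libraries, as for Egln3, Slc2a1, Pgk1 and Eno2, the adjusted p was 1.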

How the data were processed

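RNA was taken from frozen nodules and made into probe-capture libraries (TruSeq RNA Access), per the labels' protocols. The submitters' processing notes name bcl2fastq, STAR, featureCounts and DESeq2 and the builds mm10 and GRCm38; no versions, annotation or strand setting were found in them. The deposited table gives unnormalized read counts of whole numbers by symbol, as the authors made them. Their normalized table was not used.

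Groups come from the treatment labels, with replicates numbered in accession order. The counts were fitted in edgeR 4.0.16 (R 4.3.3) with robust glmQLFit and glmQLFTest, its quasi-likelihood test, with filterByExpr (14085 genes kept), TMM factors and a mean per group over 8 libraries (4 residual degrees of freedom, biological coefficient of variation 0.332). P-values were adjusted by Benjamini-Hochberg over all tested genes in each of the 6 comparisons and called at 0.05. Fold changes use a prior count of 0.125. The SE is the absolute log2 fold change divided by the square root of the F statistic, and is approximate. Single-library differences use log2(CPM + 0.5). Duplicate libraries were checked for by chi-square, whose value per degree of freedom was at least 19.4 within and 17.3 between groups, so none was a copy. Positions, exon lengths and overlaps are from GENCODE vM21 on GRCm38, which matched 48108 symbols. The scripts were tested on simulated counts.

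The members, lists, naming rule and alternatives were chosen with earlier results of these data known. Full values are given for every called member, the 5 members with the smallest p in each treatment against vehicle, and Hif1a; called genes of the 4 further lists are named. As alternatives, the factors were RLE or upper-quartile, the filter was dropped or set to a mean count of 50, and the tool was DESeq2 1.42.0 or voom in limma 3.58.1; further ones were a sex term, removal of ribosomal RNA genes, a fit of only the groups compared, and leaving out each library. The promoter windows are from RefSeq. Some items are not reported here.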

Additional observations from a re-analysis of the deposited data

How the results depend on the processing

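The number of members called moved with the setting more than the fold changes did. Without a filter on low counts it was, of 35 tested, 1 for JQ1, 1 for anti-PD-1 and 7 for the combination. It was 8 for JQ1 over both backgrounds and 3 for anti-PD-1 over both. In that order 0.946%, 0.208%, 7.54%, 9.56% and 1.61% of all genes were called. In the combination Ldhb rose, and Egln1, Gapdh, Hk2, Pdk3, Pgk1 and Vegfa fell. With JQ1 over both backgrounds Ldha, Slc16a1 and Tpi1 rose, and Egln1, Gapdh, Pdk2, Pdk3 and Vegfa fell. With the antibody over both, Ldhb and P4ha2 rose and Egln3 fell. With DESeq2 these 3 comparisons gave 4, 5 and 1 (all genes 11.7%, 15.1% and 1.43%). DESeq2 added Egln1, Ldhb and Pgk1 to Vegfa in the combination, and Pdk2, Pdk3 and Tpi1 to Vegfa and Egln1 with JQ1 over both backgrounds. A sex term, or a fit of only the groups compared, left 0 in the combination (all genes 2.41% and 1.88%). Leaving out 1 library at a time gave 0 to 3 in the combination and 0 to 5 for JQ1 over both backgrounds; the highest of each came without combination replicate 1, where 7.4% and 11.4% of all genes were called. The lowest of each came on leaving out either vehicle library. In the combination it also came without combination replicate 2, and over both backgrounds without JQ1 replicate 1 or anti-PD-1 replicate 2. In each of these fits a smaller share of all genes was also called than with all libraries. These counts therefore do not set the members apart from all genes. The lone library left in a group was then assumed to vary like the other groups, and more genes were tested. The cause of each shift was not tested.

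Of the 19 fold changes of 13 genes that were recomputed under the alternatives, none changed sign; the other fold changes were not followed there. Vegfa lay between −1.61 and −1.11 in the combination, called in 12 of 17 alternatives, and between −1.18 and −0.92 over both backgrounds, called in 11 of 16. Egln1 lay between −1.42 and −0.87 over both backgrounds and was called in 9 of 16. Over all tested genes, calls in the combination went from 676 to 1992 without a filter, 1652 with DESeq2, 339 with a sex term, 245 with only the groups compared, and 7 to 1115 on leaving out 1 library. For JQ1 over both backgrounds they went from 1165 to 2527 without a filter, 2128 with DESeq2, and 17 to 1716 on leaving out 1 library. No paired analysis was possible because the labels give no replicate numbers. Depth limits the low members most: Eno2, Ankrd37, Slc16a3 and Ldhb had 224, 248, 274 and 411 counts in all libraries together. Groups of 2 are too small to test a library as an outlier.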
